A study of Bos taurus with 8 samples.

Results

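Hedgehog and parathyroid hormone-related protein (PTHrP) signalling was examined through 9 genes, *IHH*, *PTHLH*, *PTH1R*, *PTCH1*, *SMO*, *GLI1*, *GLI2*, *GLI3* and *HHIP*, picked by name from the 24596 genes of a bovine RNA-Seq count table. All 9 were found, each as a single row, and all 9 were among the 12857 genes with enough counts to be tested. The cells were wild type chondrocytes from knee cartilage of calves 1 to 2 weeks old, either superficial zone chondrocytes (SZCs) or deep zone chondrocytes (DZCs), with 2 libraries each. The middle zone was cut away and discarded, slices were collected by joint, and the freed cells were grown for 3 days in medium with serum before RNA was taken, so the values describe early cultures and not intact cartilage. Both zones had the same culture and neither received any other treatment.

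In growth cartilage, Indian hedgehog (IHH) is secreted by chondrocytes that are about to enlarge, and PTHrP, the product of *PTHLH*, is made by cells near the joint surface. PTHrP acts on its receptor PTH1R to hold chondrocytes back from enlargement, and IHH in turn sustains *PTHLH* expression, which closes a feedback loop. Hedgehog ligands bind Patched (PTCH1), which relieves Smoothened (SMO) from inhibition and changes the processing of the GLI transcription factors, of which GLI3 acts largely as a repressor and GLI1 and GLI2 largely as activators. *PTCH1*, *GLI1* and *HHIP*, which encodes a decoy that binds the ligand, are themselves targets of the pathway.

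Library totals lay between 19918970 and 21890549 counts, so 3 counts, used as the floor of detection for counting error only, correspond to at most 0.151 counts per 1000000 (CPM) before scaling. All 8 chondrocyte markers, among them *COL2A1*, *ACAN* and *SOX9*, were present in every library. All 6 superficial zone markers, which include *PRG4*, were higher in SZCs (edgeR's exact test). The study had named these 6 genes as higher in SZCs from the same RNA-Seq data, so this is not an independent check of the zones. The replicates of DZCs were less alike than those of SZCs. The median absolute log2 ratio between replicates was 0.57 over all tested genes in DZCs and 0.24 in SZCs. In DZC replicate 1, *COL2A1* alone took 24.5% of the counts, against 12.9% in DZC replicate 2 and between 6.31% and 7.18% in SZCs. Of 10 hypertrophic and bone markers, *MMP13* had 468 counts and *COL10A1* 221 counts in DZC replicate 2, and both had 0 in DZC replicate 1. Levels below are CPM after TMM scaling, which compensates for differences in composition such as that of *COL2A1*.

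*GLI3* was higher in SZCs and *IHH* was higher in DZCs. These were the 2 genes of the 9 that had a Benjamini–Hochberg adjusted p (FDR) below 0.05 by the exact test of edgeR, 1 in each direction. Over all tested genes the test called 2.93%, with 2.23% higher in SZCs and 0.700% higher in DZCs. In 4 of the 9 genes, *GLI3*, *GLI2*, *HHIP* and *PTHLH*, both SZC libraries lay above both DZC libraries, an order found in 21.0% of all tested genes. In *IHH* and *PTH1R* both DZC libraries lay above both SZC libraries, as in 20.5% of all tested genes. The zones overlapped in *PTCH1*, *SMO* and *GLI1*. The median log2 fold change, SZCs over DZCs, was 0.09 over the 9 genes and -0.04 over all tested genes.

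**Figure D1:**
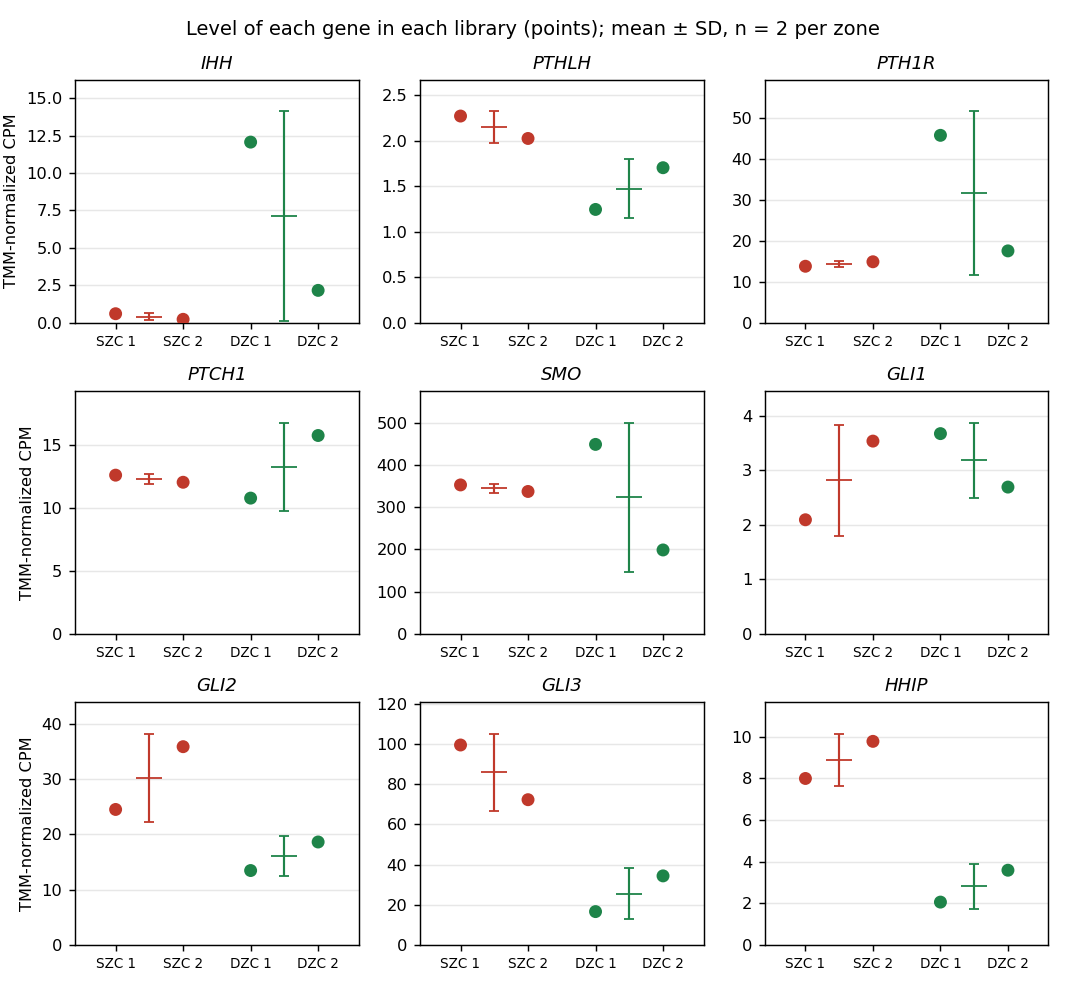
Level of each of the 9 genes in each library, as TMM-normalized CPM on a linear axis (points, SZCs in red and DZCs in green), with the mean ± SD of each zone (n = 2). *GLI3* lies between 72.3 and 99.5 CPM in SZCs and at or below 34.3 CPM in DZCs, while *IHH* is below 1 CPM in both SZC libraries and spreads from 2.15 to 12.1 CPM in DZCs.

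The ligand *IHH* (ENSBTAG00000008452) was counted 13 and 5 times in SZC replicates 1 and 2, and 194 and 48 times in DZC replicates 1 and 2. Its levels were 0.591 and 0.215 CPM in SZCs and 12.1 and 2.15 CPM in DZCs. Both DZC libraries were above both SZC libraries, but DZC replicate 1 was far above DZC replicate 2. SZCs averaged 0.403 ± 0.265 CPM and DZCs 7.11 ± 7.01 CPM (SD, n = 2 each). On the log2 scale SZCs over DZCs came to -4.12 (standard error, SE, 1.01, edgeR exact FDR 0.0160), a 17.4-fold higher level in DZCs. The size of this difference rests largely on DZC replicate 1, since without that library the log2 fold change was -2.41 (FDR 0.0417), and the call was lost without SZC replicate 1 (FDR 0.178) or SZC replicate 2 (FDR 0.433). Over 8 other tests, filters and scalings the FDR lay between 0.00146 and 0.321.

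The summed level of the 8 chondrocyte markers, most of it *COL2A1* in DZC replicate 1, was 120684 and 123310 CPM in SZCs, 485945 CPM in DZC replicate 1 and 188466 CPM in DZC replicate 2. In 5 of these markers both DZC libraries lay above both SZC libraries, and *ACAN*, *SOX9* and *HAPLN1* overlapped between zones. The 1 marker called, *MATN3*, was higher in DZCs but, unlike *IHH*, was higher in DZC replicate 2 (334 CPM) than in DZC replicate 1 (186 CPM). Relative to *COL2A1*, a comparison added after the values were seen, *IHH* was counted 9.09 and 3.88 times per 1000000 *COL2A1* counts in SZCs and 36.2 and 18.1 times in DZCs, an order found in 0.249% of all tested genes on that scale, while 88.1% had the reverse one. The means on that scale were 4.19-fold apart, against the fitted 17.4-fold after TMM scaling. The part of the chondrocyte markers in the result was not tested further. The summed level of the 10 hypertrophic and bone markers, most of it *SPP1*, was 114 and 113 CPM in SZCs, 30.6 CPM in DZC replicate 1 and 289 CPM in DZC replicate 2. Of the 5 that could be tested, 0 passed by edgeR's exact test, beside 2.93% of all tested genes. By that test 2 of the 5 had an unadjusted p below 0.05, beside 1169 of all 12857 tested genes. The median log2 fold change of the 5 was -2.23, which is the value of *RUNX2*. *PHOSPHO1* was at 0.38 and *SPP1* at -0.06. *COL10A1* was at -2.44 and *ALPL* at -4.88, both high only in DZC replicate 2. *RUNX2*, a transcription factor gene of enlarging chondrocytes and bone cells, was the 1 of the 5 without overlap between zones, at 1.59 and 3.66 CPM in SZCs and at 7.47 and 17.2 CPM in DZCs (log2 fold change -2.23, edgeR exact FDR 0.0608). It was higher in DZC replicate 2 than in DZC replicate 1, the reverse of *IHH*. The part of these markers in the result was not tested. In bulk RNA a smaller number of cells that express a gene and less RNA in each such cell cannot be told apart.

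*PTHLH*, the PTHrP ligand gene (ENSBTAG00000006538), had 50 and 47 counts in SZCs against 20 and 38 in DZCs, or 2.27 and 2.02 CPM against 1.24 and 1.70 CPM. The SZC values were above the DZC values in both libraries, and the log2 fold change was 0.54 (SE 0.63, edgeR exact FDR 0.990). This difference was smaller than its standard error. *PTH1R*, the receptor gene (ENSBTAG00000016948), was at 13.8 and 14.9 CPM in SZCs and at 45.8 and 17.5 CPM in DZCs. Here too DZC replicate 1 stood apart, and DZC replicate 2 was only slightly above the SZC libraries. The log2 fold change of *PTH1R* was -1.14 (SE 0.54, edgeR exact FDR 0.459). It was -0.29 without DZC replicate 1 (FDR 0.831) and -1.65 without DZC replicate 2 (FDR 5.14e-07), and the FDR was 1 without either SZC library. Leaving out DZC replicate 2 raised the calls over all 12857 genes from 377 to 2768. Per 1000000 *COL2A1* counts the order turned to that of most genes, with 212 and 268 counts of *PTH1R* in SZCs and 137 and 147 in DZCs. No other chondrocyte marker was used as a scale, so this order is shown for *COL2A1* alone.

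The log2 ratio of *PTHLH* to *PTH1R* counts within a library, which does not depend on scaling, was -2.59 and -2.86 in SZCs and -5.17 and -3.35 in DZCs. Ligand relative to receptor was thus higher in both SZC libraries, by 1.53 on the log2 scale between the means, and DZC replicate 1 had the lowest ratio. With a library left out the difference was 0.62 without DZC replicate 1 and 2.44 without DZC replicate 2. By exact permutation (two-sided) p was 0.333, the smallest p that 2 libraries against 2 can reach. Because transcript length was not taken into account, these ratios are read only between zones and not as relative amounts of the 2 transcripts.

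**Figure D2:**
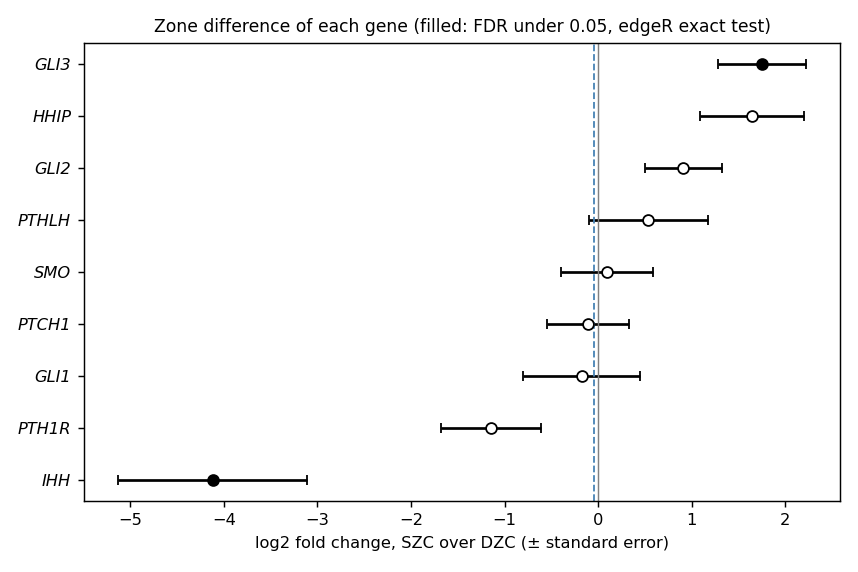
Log2 fold change of each gene, SZCs over DZCs, with its standard error (bars); filled points passed the FDR threshold and the dashed line is the median of all tested genes. *GLI3* at 1.75 and *IHH* at -4.12 are filled, and *SMO*, *PTCH1* and *GLI1* lie within their standard errors of 0.

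Of the receptor genes, *SMO* (ENSBTAG00000013287) was at 353 and 337 CPM in SZCs and at 449 and 199 CPM in DZCs. The SZC values fell between the DZC values, for a log2 fold change of 0.09 (SE 0.49, edgeR exact FDR 1), and it took opposite signs with each DZC library left out, 0.80 without replicate 1 and -0.36 without replicate 2. *PTCH1* (ENSBTAG00000009903), which is both receptor and target, was at 12.6 and 12.0 CPM in SZCs and at 10.8 and 15.7 CPM in DZCs. Its SZC values also lay between the DZC values, with a log2 fold change of -0.11 (SE 0.43, edgeR exact FDR 1). The sign of this small value depended on the scaling, since it was 0.15 with libraries scaled by their totals alone. The log2 ratio of *PTCH1* to *SMO* counts was -4.81 in both SZC libraries, -5.38 in DZC replicate 1 and -3.66 in DZC replicate 2. The difference between the zone means was -0.29, with p = 1 in an exact two-sided permutation test, and it turned sign between DZC replicate 1 left out (-1.15) and DZC replicate 2 left out (0.57).

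*GLI3* (ENSBTAG00000010671) had 2191 and 1678 counts in SZCs against 266 and 766 in DZCs. It was at 99.5 and 72.3 CPM in SZCs and at 16.5 and 34.3 CPM in DZCs. Both SZC values lay well above both DZC values, and DZC replicate 1 was the lowest. SZCs averaged 85.9 ± 19.3 CPM and DZCs 25.4 ± 12.6 CPM (SD, n = 2 each), and the log2 fold change was 1.75 (SE 0.47, edgeR exact FDR 0.0142), a 3.37-fold higher level in SZCs. The FDR lay between 0.00714 and 0.298 over the 8 other tests, filters and scalings, and the call was lost with the quasi-likelihood test (0.298) and with scaling by library totals (0.0789). It was also lost without SZC replicate 1 (FDR 0.720) or SZC replicate 2 (0.0968). The log2 fold change was 1.33 without DZC replicate 1 and 2.40 without DZC replicate 2.

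*GLI2* (ENSBTAG00000011682), largely an activator, was at 24.5 and 35.8 CPM in SZCs and at 13.4 and 18.6 CPM in DZCs. Its zones did not overlap, and the log2 fold change was 0.91 (SE 0.41, edgeR exact FDR 0.394). With a library left out the FDR was 1 without either SZC library, 0.330 without DZC replicate 1 and 0.00943 without DZC replicate 2, where 2768 genes are called. *GLI1* (ENSBTAG00000006631), whose transcription follows active Hedgehog signalling, was at 2.09 and 3.53 CPM in SZCs and at 3.67 and 2.69 CPM in DZCs. These values overlapped, with a log2 fold change of -0.17 (SE 0.63, edgeR exact FDR 1) that was 0.17 with libraries scaled by their totals. Within libraries, the log2 ratio of *GLI3* to *GLI2* counts was 2.02 and 1.01 in SZCs and 0.30 and 0.88 in DZCs. That of *GLI3* to *GLI1* was 5.56 and 4.35 in SZCs and 2.16 and 3.66 in DZCs. Both ratios were higher in the SZC libraries without overlap, by 0.93 and 2.04 between the means, and each gave p = 0.333 in the exact two-sided permutation test, again the smallest value possible. With each library left out, the difference in *GLI3* to *GLI2* ran from 0.42 (without SZC replicate 1) to 1.43 (without SZC replicate 2), and that in *GLI3* to *GLI1* from 1.29 (without DZC replicate 1) to 2.79 (without DZC replicate 2).

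*HHIP* (ENSBTAG00000016071), the ligand decoy, had 176 and 227 counts in SZCs against 33 and 80 in DZCs, or 8.0 and 9.78 CPM against 2.05 and 3.59 CPM. The DZC values were both below the SZC values, with DZC replicate 1 the lowest. The log2 fold change was 1.65 (SE 0.56), a 3.13-fold difference, with an unadjusted p of 0.00393 and an FDR of 0.102 (edgeR, exact). The FDR lay between 0.0757 and 0.342 over the 8 alternatives, and with a library left out it was 1 without either SZC library, 0.0898 without DZC replicate 1 and 0.000793 without DZC replicate 2, the setting that calls 2768 genes.

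Synovial and fibroblast markers were compared beside *GLI3*, *GLI2* and *HHIP*. The summed level of the 6 markers, most of it *COL1A1* and *COL3A1*, was 13694 and 18210 CPM in SZCs, 2912 CPM in DZC replicate 1 and 10872 CPM in DZC replicate 2, with 0 of the 6 at 0 in all libraries and 1 (*DCN*) called, higher in SZCs. Both SZC libraries were above both DZC libraries in *COL3A1*, *PDGFRA* and *DCN*, and the zones overlapped in *COL1A1*, *THY1* and *CD248*, of which *CD248* was highest in DZC replicate 2 (17.9 CPM). Per 1000000 counts of *COL3A1*, one of these markers, *GLI3* had 12139 and 9399 counts in SZCs and 10742 and 7974 in DZCs, and the zones overlapped on that scale, as they did for *GLI2* and *HHIP*. On it both DZC libraries lay above both SZC libraries in 84.4% of all tested genes and the reverse held in 2.23%, *COL3A1* itself being at 8200 and 7692 CPM in SZCs and at 1540 and 4306 CPM in DZCs. This scale was chosen after the values were seen. No other marker of the list was used as a scale, so the overlap is shown for *COL3A1* alone. The part of these markers in the zone difference was not tested. Endothelial and blood cell markers summed to between 5.54 and 16.5 CPM in every library, with *HBB* at 0.

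Among all tested genes, the profiles nearest to those of the 3 genes with the largest fold changes were found by the Euclidean distance between mean-centred log2(CPM + 1) values over the 4 libraries. Nearest to *IHH* were ENSBTAG00000045588 (distance 0.35), *FADS2* (0.42) and *COL2A1* (0.63). *FADS2*, a fatty acid desaturase gene, was at 10.9 and 10.0 CPM in SZCs and at 96.1 and 32.2 CPM in DZCs, and was thus highest in DZC replicate 1, as *IHH* was. Nearest to *GLI3* were ENSBTAG00000005140 (0.15), *CAPN5* (0.21), a calpain protease gene, and *TBX18* (0.21), a T-box factor gene. Nearest to *HHIP* were *IGF1* (0.12), a growth factor gene, *TNIK* (0.14), a kinase gene, and *CD14* (0.15), a gene of monocytes and macrophages.

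The pathways hold other genes, of which 66 were listed in 5 groups. Of these, 63 had a row in the table, 10 fell below the filter and 53 were tested. By edgeR's exact test 4 were higher in SZCs, *GAS1*, *CDON*, *BOC* and *SCUBE2*, and 0 were higher in DZCs, beside 2.23% and 0.700% of all tested genes. DESeq2 called the same 4. The median log2 fold change of the 53 was 0.13. An unadjusted p below 0.05 was found for 5 of the 53 and for 1169 of all 12857 genes tested.

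**Figure D3:**
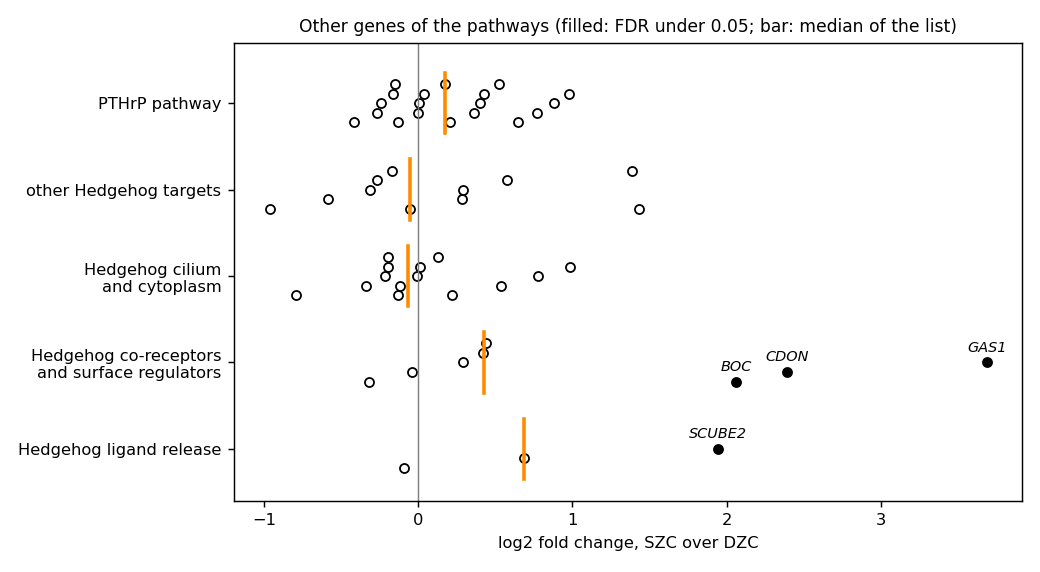
Log2 fold change, SZCs over DZCs, of each tested gene in 5 groups of other pathway genes (filled points, FDR under 0.05 in edgeR's exact test; orange bars, group medians; heights within a group only separate the points). The 4 filled points, *SCUBE2*, *BOC*, *CDON* and *GAS1*, lie between 1.94 and 3.69.

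Of 8 tested genes for co-receptors and surface regulators, 3 were higher in SZCs. They were *GAS1*, *CDON* and *BOC*, which encode the membrane proteins that help PTCH1 bind Hedgehog ligands. *GAS1* was at 48.5 and 29.6 CPM in SZCs and at 1.62 and 4.39 CPM in DZCs, and was thus far lower in both DZC libraries. Its log2 fold change was 3.69 (SE 0.57, edgeR exact FDR 1.80e-06). *CDON* was at 482 and 286 CPM in SZCs and at 89.3 and 56.8 CPM in DZCs, a log2 fold change of 2.39 (SE 0.45, edgeR exact FDR 7.88e-05). *BOC* was at 264 and 217 CPM against 69.2 and 46.3 CPM, a log2 fold change of 2.06 (SE 0.39, edgeR exact FDR 5.54e-05). The zones did not overlap in these 3 genes, though relative to *COL3A1* counts they did in *CDON* and *BOC*. The quasi-likelihood test, which called 0 genes in all, gave an FDR between 0.162 and 0.206 for *GAS1*, *CDON*, *BOC* and *SCUBE2*, and without SZC replicate 1 only *GAS1* of the 4 was called (FDR 0.0179 by the exact test of edgeR). In 5 of the 8 genes both SZC libraries were above both DZC libraries, and in 0 the reverse held, beside 21.0% and 20.5% of all tested genes.

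**Figure D4:**
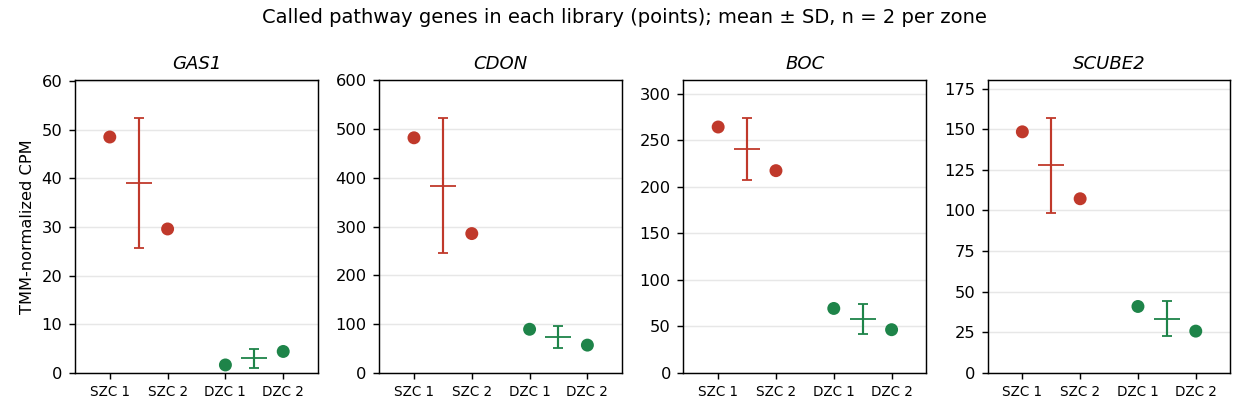
Level of the 4 called pathway genes in each library, as TMM-normalized CPM on a linear axis from 0 (points, SZCs in red and DZCs in green), with the mean ± SD of each zone (n = 2). In each gene both SZC values lie above both DZC values, and the SZC replicates differ most in *CDON*, at 482 and 286 CPM.

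Of the genes for ligand release, *SCUBE2*, whose secreted product frees lipid-bearing Hedgehog from the cell surface, was at 148 and 107 CPM in SZCs and at 40.9 and 25.7 CPM in DZCs. Its log2 fold change was 1.94 (SE 0.41, edgeR exact FDR 0.000525). Its relatives *SCUBE1* (log2 fold change 0.69) and *SCUBE3* (-0.09), named after their values were seen, were not called. The other Hedgehog ligands were near the limit of counting. *SHH* had 0 counts in all 4 libraries, which allows at most 3 counts in each, or at most 0.151 CPM before TMM scaling, and *DHH* had at most 1 count in any library. *IHH* was thus the Hedgehog ligand with counts above 3 in these libraries. *PTH* and *PTH2*, related ligand genes, likewise had at most 1 count in any library, and the alternative receptor gene *PTH2R* had at most 3.

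The signal from SMO to the GLI factors is handled in the primary cilium and cytoplasm. Of 14 genes of these places, 0 were called by edgeR's exact test and 1 had an unadjusted p below 0.05. Over all 12857 tested genes 2.93% were called and 1169 had an unadjusted p below 0.05, so 0 calls here is near that share. The median log2 fold change of the 14 was -0.06. The lowest values were those of *GSK3B* (-0.79) and *CSNK1A1* (-0.34), kinases that phosphorylate GLI proteins, and the highest were those of *EVC2* (0.99) and *EVC* (0.77), which encode partner proteins at the base of the cilium. *EVC2* was at 26.9 and 23.0 CPM in SZCs and at 9.33 and 15.8 CPM in DZCs, with an FDR of 0.358.

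Of 11 tested genes among other Hedgehog targets, 0 were called by edgeR's exact test and 0 had an unadjusted p below 0.05. Their median log2 fold change was -0.05. The test called 2.93% of all tested genes, so 0 calls in this list is near that share. The lowest were the cyclin genes *CCND1* (-0.96) and *CCND2* (-0.58), and the highest were the Notch ligand gene *JAG2* (1.43) and the forkhead gene *FOXF1* (1.39). *CCND1* was at 5.13 and 8.88 CPM in SZCs, 2.43 CPM in DZC replicate 1 and 24.8 CPM in DZC replicate 2, so that its highest and lowest values were both in DZCs. *FOXF1* was at 2.27 and 3.19 CPM in SZCs and at 0.435 and 1.61 CPM in DZCs, with an FDR of 0.735.

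Downstream of PTHrP, 0 of 19 tested genes were called by edgeR's exact test and 0 had an unadjusted p below 0.05. Their median log2 fold change was 0.17. With 2.93% of all tested genes called, 0 calls in this list is near that share. The lowest were *RAMP2* (-0.42), a receptor partner, and *NKX3-2* (-0.27), a homeobox factor that holds back chondrocyte enlargement. The highest were *GNAQ* (0.98), a G protein subunit gene, and *ARRB2* (0.88), an arrestin gene. In 9 of the 19 genes both SZC libraries were above both DZC libraries and in 1 the reverse held, orders found in 21.0% and 20.5% of all tested genes. The row named *GNAS* had between 1 and 7 counts, below the filter. That is low for a widely expressed gene, and its reads may be counted under another identifier, so the value is not read as its level.

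**Figure D5:**
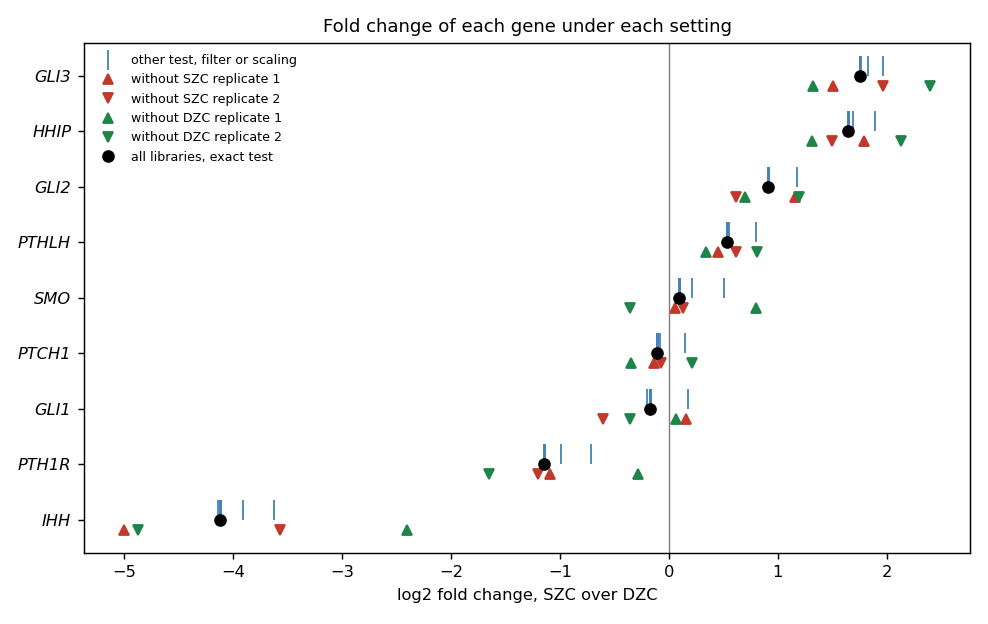
Log2 fold change of each gene, SZCs over DZCs, with all libraries (black), under 8 other tests, filters or scalings (blue ticks) and with each library left out (triangles). *IHH* ranges from -5.00 to -2.41 and *GLI3* from 1.33 to 2.40 with a library left out, while *SMO*, *PTCH1* and *GLI1* lie on both sides of 0.

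Leaving out each library in turn kept the sign of the log2 fold change in *IHH*, *PTH1R*, *PTHLH*, *GLI2*, *GLI3* and *HHIP*. It changed the sign in *SMO*, *PTCH1* and *GLI1*, the genes whose zones overlapped. Where the zones did not overlap, the sign could hardly change, so its being kept adds nothing to that order. The values with a library left out lay between 1.31 and 2.13 for *HHIP*, between 0.61 and 1.19 for *GLI2* and between 0.34 and 0.81 for *PTHLH*. In the RefSeq annotation of build ARS-UCD2.0, *PTCH1*, *GLI3* and *HHIP* each overlap 1 other gene model and the other 6 genes overlap none. Since counting took no account of strand, reads of such a pair may not be told apart. With only 2 libraries per zone, 7 of the 9 genes did not pass the FDR threshold of edgeR's exact test, which does not show that their levels were the same in both zones.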

How the data were processed

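Cultured calf chondrocytes of the superficial zone (SZCs) and of the deep zone (DZCs) were profiled by RNA-Seq, with 2 libraries per zone, which the study's methods describe as biological duplicates. Reads had been aligned by STAR 2.5.2b to the Ensembl build UMD 3.1, and the authors deposited raw read counts, taken without regard to strand, for 24596 genes. The authors' own comparison, a table of fold changes and adjusted p-values, was used only to fill 8 of 6119 blank gene names. The ATAC-Seq samples were not analysed here.

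Genes with few counts were left out with the default filter of edgeR 4.0.16, libraries were scaled by trimmed mean of *M* values (TMM), and zones were compared by the exact test named in the study's methods. P-values were adjusted by Benjamini–Hochberg over all 12857 genes tested (FDR, threshold 0.05). Standard errors came from the negative binomial model with gene-wise dispersion. Levels are TMM-normalized counts per 1000000 (CPM). Counts relative to *COL2A1* or *COL3A1* were added after the data were seen. Scripts were tested on simulated data. The alternatives were the quasi-likelihood test, DESeq2 1.42.0, other filters, scalings and dispersions, a replicate block and leaving out each library.

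The 9 members and the pathway and marker lists were chosen with earlier results of these data known. Named genes were the members, the called genes of each list, otherwise the 2 lowest and 2 highest of a list, the 3 genes nearest in profile to each of 3 members, and marker genes. Also named, outside this rule, were *SCUBE1* and *SCUBE3*, and *SHH*, *DHH*, *PTH*, *PTH2*, *PTH2R* and *GNAS*, which fell below the filter. *HHAT*, *DISP1*, *SIK1* and *HBA* were not analysed here. The RefSeq gene table in use was of another build (ARS-UCD2.0) and served only to find which genes overlap each other. No coordinates or sequences are printed.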

Additional observations from a re-analysis of the deposited data

How the results depend on the processing

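The quasi-likelihood test of edgeR called 0 genes, with 1126 at an unadjusted p below 0.05, against 377 by the exact test and 397 by DESeq2. These were 0 in each direction, 0 of the 9 genes and 0 of the other pathway genes. Under it the log2 fold change was -4.12 for *IHH* and 1.75 for *GLI3*. With libraries scaled by their totals, 44 genes were called higher in DZCs, against 90, and 1 of the 9 genes (*IHH*) was called, with *GLI3* at 1.96, *PTCH1* at 0.15 and *GLI1* at 0.17. That scaling moved the median over the 12857 genes by 0.30 (log2). The cause of these changes was not tested.

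The replicate numbers are shared between zones, but no source used here says that same-numbered libraries came from one joint. The deviations of same-numbered libraries had a correlation of 0.42 across genes. With the replicate number as a block (replicate block), 347 genes passed by quasi-likelihood, 277 of them shared with the exact test, and 2 of the 9 genes, *IHH* at -3.91 and *GLI3* at 1.82. The same quasi-likelihood test without the block called 0 genes, so these calls depend on the block.

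With each library left out, a zone keeps a lone library that is assumed to vary like the other zone. The genes called then ranged from 68 to 2768, those higher in SZCs from 62 to 1656, those higher in DZCs from 6 to 1112, those among the 9 from 0 to 5 and those among other pathway genes from 1 to 12. The log2 fold change ranged from -5.00 to -2.41 for *IHH*, -1.65 to -0.29 for *PTH1R*, -0.35 to 0.21 for *PTCH1*, -0.36 to 0.80 for *SMO*, -0.60 to 0.15 for *GLI1*, 0.61 to 1.19 for *GLI2*, 1.33 to 2.40 for *GLI3* and 1.31 to 2.13 for *HHIP*. The counts behind *IHH* and *PTHLH* in SZCs were few, between 5 and 50.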

Other observations

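Counts relative to a marker gene of the same library, chosen after the values were seen, gave different orders of the zones. Per 1000000 *COL2A1* counts, both SZC libraries lay above both DZC libraries in 8 of the 9 genes, and *IHH* alone had the reverse order, beside 88.1% and 0.249% of all tested genes. *COL2A1* itself took a larger share of the counts in DZCs, which lowers every such value there. Per 1000000 *COL3A1* counts, both DZC libraries lay above both SZC libraries in 6 of the 9 genes, beside 84.4% of all tested genes, and the zones overlapped in *GLI2*, *GLI3* and *HHIP*. *COL3A1* itself was at a lower level in both DZC libraries, which raises every such value there. On that scale *CDON*, *BOC* and *SCUBE2* overlapped between zones as well, while *GAS1* had 5917 and 3848 counts per 1000000 *COL3A1* counts in SZCs and 1050 and 1020 in DZCs, without overlap.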
